A study of Mus musculus with 12 samples.

Results

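QJSB, the Qi Jing Sheng Bai granule, is a herbal preparation given for leucopenia, and leucogen is a drug used in the clinic to raise leucocyte counts. Here the RNA of femoral bone marrow from 3 mice given QJSB was compared with that from 3 mice given leucogen. The comparison took in every gene with enough counts in these 6 libraries, which was 14266 of the 34745 genes in the table. All 6 mice were ICR males. On days 5, 6 and 7 each had been injected daily with 80 mg/kg of the alkylating agent cyclophosphamide, which is toxic to cells in division. The granule was given at 3 g/kg and leucogen at 20 mg/kg, daily for 1 week. The 3 normal mice, given saline, and the 3 model mice, given cyclophosphamide and saline, are used below as reference levels without a test, and the 4 groups make up the 12 libraries of the series. ICR is an outbred strain, so genetic differences between mice are part of the spread within a group. The deposited columns are headed Blank, Model, Positive and Stilbene, and only Model is a name that the sample labels use. Positive was taken as leucogen and Stilbene as QJSB by the meaning of the names, by elimination and, in part, by values, and every direction given below rests on that reading.

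Neutrophils are made in the marrow in steps. Promyelocytes fill primary granules with myeloperoxidase and serine proteases, and later stages replace these with lactoferrin, gelatinase and calprotectin as they stop dividing. Cyclophosphamide removes dividing precursors, and the marrow then refills, so the balance of early and late granule genes, of genes for division and protein synthesis, and of hormone and cytokine responses are the usual readings of its state. In RNA of whole marrow, fewer cells of a type and less RNA per cell cannot be told apart.

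Library totals ran from 16758401 to 18545198 counts in QJSB and from 11172547 to 14766064 in leucogen. Every pair of libraries within a group differed by more than counting noise, the chi-square statistic divided by its degrees of freedom running from 13.9 to 99.6. QJSB 1 stood apart from the other QJSB libraries, with Pearson correlations of log2 CPM across genes of 0.956 and 0.962 against 0.979 between QJSB 2 and QJSB 3. CPM is the count per 1e+06 counts of the library after TMM scaling. The labelled tissue had its defining markers: the summed level of 20 late neutrophil granule genes was 11300 to 51400 CPM in QJSB and 65300 to 83900 CPM in leucogen, and that of 8 primary granule genes 10100 to 11000 and 6530 to 7760 CPM. Red cell and pre-B cell markers were low in both groups, at 397 to 1190 CPM over 17 genes and 22.1 to 75.2 CPM over 8 genes, against at least 22300 and 1510 CPM in the normal libraries.

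QJSB and leucogen marrow differed at a large share of the genes measured. A gene was called at a fold change over 1.5 in either direction with a Benjamini-Hochberg adjusted p under 0.05 from edgeR's quasi-likelihood test, and 3511 genes were called, 24.6% of those tested. Of these, 1836 (12.9% of those tested) were higher in QJSB and 1675 (11.7%) were higher in leucogen. Fold changes are given as QJSB minus leucogen on the log2 scale, so that a negative value means more RNA in leucogen. A log2 fold change beyond 1 was reached by 776 called genes in QJSB and 844 in leucogen. At the same fold change with an unadjusted P under 0.05, the cutoff of the study's methods, 4367 genes (30.6%) passed, 2255 of them higher in QJSB. The CPM of the libraries did not overlap between the groups for 6966 genes, 48.8% of those tested, and for 3497 of the 3511 called. Single libraries of the leucogen group carried many calls: without leucogen 3 the number of called genes was 1544, of which 1525 were among the 3511, and without leucogen 1 it was 2157, with 2047 shared. Leaving out any other library left between 2919 and 3585.

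The difference followed the base composition of the transcripts and the type of gene. Among 753 protein-coding genes with under 40% GC in their longest transcript, the median log2 fold change was -0.61, with 1 called higher in QJSB and 322 higher in leucogen. Among 2573 with 55% GC or more it was 0.47, with 706 called higher in QJSB and 28 in leucogen. The classes in between had medians of -0.25, 0.08 and 0.32. Over all genes tested the median was 0.03. The median deviation of the 1244 genes of any type with under 40% GC from the mean of the 12 libraries was -0.38, -0.41 and -0.27 in QJSB and 0.36, 0.26 and 0.42 in leucogen, on the log2 CPM scale. The 2 sets of libraries did not overlap, and the model libraries spread from -0.36 to 0.14. Unspliced and noncoding models lay mostly on the leucogen side. Of 749 tested models of the class TEC, gene models that await experimental proof, 419 were higher in leucogen and 2 in QJSB, and they held 1.37% ± 0.13 (SD, n = 3) of the counts in leucogen and 0.677% ± 0.084 (SD, n = 3) in QJSB. Of 123 models within introns 75 were higher in leucogen and 0 in QJSB, and of 238 antisense models 35 and 0. At 12294 protein-coding genes the split went the other way, with 1777 called higher in QJSB and 1008 in leucogen. Gm26917 and Gm42418, noncoding gene models, held 4.15% ± 0.29 and 0.453% ± 0.018 of the counts in QJSB and 1.52% ± 0.27 and 0.0866% ± 0.0287 in leucogen (SD, n = 3). Removing both before scaling left 3509 calls. With the trend of each library on GC content taken out, 1783 of 14200 genes were called, 957 of them higher in QJSB, and 1373 of these were among the 3511. This alternative, chosen after the data were seen, is given beside most gene groups below, and whether the GC pattern is of the RNA or of the libraries was not tested.

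**Figure D1:**
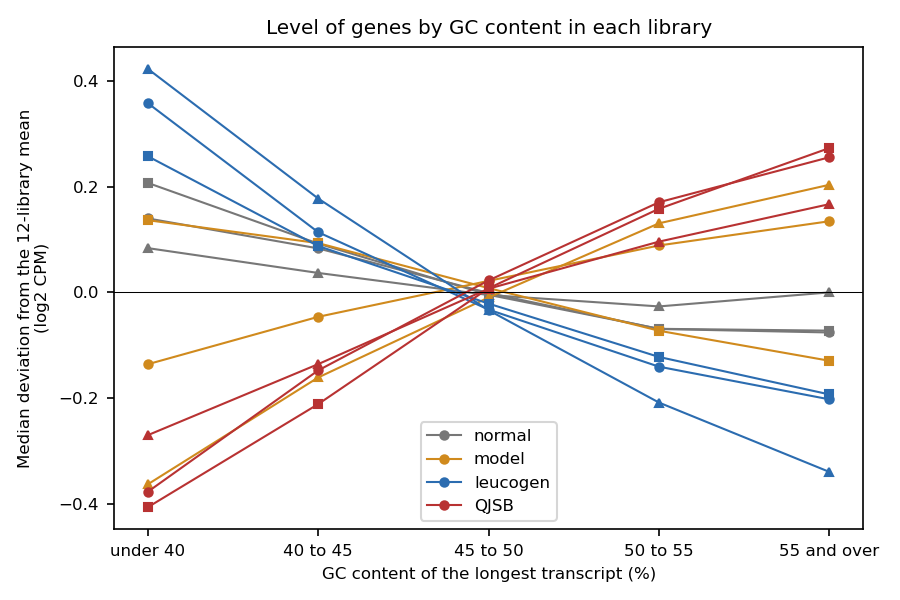
Median deviation of genes from the mean of the 12 libraries (log2 CPM, vertical axis) in 5 classes of GC content (%, horizontal axis), with a line for each library coloured by group and a marker shape for each replicate number. The 3 leucogen lines start at 0.26 to 0.42 under 40% GC and fall, the 3 QJSB lines start at -0.41 to -0.27 and climb, and the model and normal lines lie between or among them.

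The 8 widest differences on the leucogen side were at Has2, Aldh3b3, Tmem45a2, Nt5e, Tgtp1, Iigp1, Ifit1bl2 and Tex15. The 8 genes of either side were picked from called genes without overlap between the groups, so their lack of overlap is no result. Has2 (ENSMUSG00000022367, chromosome 15, 56665627 to 56694539, GRCm38), which encodes a hyaluronan synthase, was at 0.322, 1.85 and 1.83 CPM in QJSB 1 to 3 and at 17.9, 11.7 and 22 CPM in leucogen 1 to 3. The log2 fold change of Has2 was -3.71 (standard error 0.55, edgeR adjusted p = 0.00447). Nt5e (chromosome 9, 88327197 to 88372092), the ecto-enzyme that makes adenosine from AMP, was at 1.56, 4.98 and 3.84 CPM in QJSB and 36.6, 22.8 and 29.7 CPM in leucogen, with a log2 fold change of -3.12 (standard error 0.40, edgeR adjusted p = 0.00317). Has2 averaged 17.2 CPM in leucogen, below all normal libraries (mean 31.4 CPM), and Nt5e 29.7 CPM against 26.2 CPM in normal. The model means were 0.889 and 1.79 CPM, closer to QJSB. Aldh3b3, an aldehyde dehydrogenase gene, was at 1.34, 3.30 and 0.792 CPM in QJSB and 16.5, 18.1 and 20.7 CPM in leucogen (log2 fold change -3.37, standard error 0.44, edgeR adjusted p = 0.00317). Its neighbour Aldh3b2, which begins just past the end of Aldh3b3 on chromosome 19, was at no more than 0.289 CPM in QJSB and at 2.70, 4.13 and 2.50 CPM in leucogen (edgeR adjusted p = 0.00304). Tex15, a germ cell gene of meiotic recombination with 37.4% GC, was at 43.7, 61.7 and 59.4 CPM in QJSB and 419, 323 and 443 CPM in leucogen, above the normal mean of 184 CPM. Its log2 fold change was -2.87 (standard error 0.20, edgeR adjusted p = 0.00184), and -2.09 with the GC trend removed (edgeR adjusted p = 0.00547). Tmem45a2, a transmembrane protein gene, had a log2 fold change of -3.17 (edgeR adjusted p = 0.00287). These 5 genes (Has2, Nt5e, Aldh3b3, Tex15 and Tmem45a2) were called in each fit that left out a library and with the GC trend removed. The interferon-induced genes Tgtp1, Iigp1 and Ifit1bl2 had log2 fold changes of -2.97, -2.96 and -2.87 but varied among the leucogen mice. Iigp1, a GTPase of cell-autonomous defence, was at 43.3, 8.99 and 15.7 CPM in leucogen and 3.12, 3.82 and 1.95 CPM in QJSB (edgeR adjusted p = 0.0131, and 0.0977 without QJSB 1). Tgtp1 (edgeR adjusted p = 0.0276) was lost in 5 of the 6 fits that left out a library, with values up to 0.122 without QJSB 1, and reads of it could be split with its near-identical neighbour Tgtp2. Ifit1bl2 (edgeR adjusted p = 0.0388) had an adjusted p of 0.0972 without leucogen 3, 0.0936 without leucogen 1, 0.0789 without QJSB 3 and 0.0526 without QJSB 2, and of 0.111 with the replicate number as a block.

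The 8 widest differences on the QJSB side were at Evi2b, Magi1, Ddit4, Col1a1, Saa3, Fos, Dusp1 and Abca6. Ddit4 (chromosome 10, 59949675 to 59951770), an inhibitor of mTORC1 that stress and glucocorticoids induce, was at 18.9, 26.1 and 15.9 CPM in QJSB and 1.43, 2.90 and 2.88 CPM in leucogen. The log2 fold change of Ddit4 was 3.06 (standard error 0.32, edgeR adjusted p = 0.00285). Fos, a transcription factor of the AP-1 complex, was at 19.4, 40.6 and 25.2 CPM in QJSB and 4.93, 3.92 and 2.98 CPM in leucogen (log2 fold change 2.82, standard error 0.32, edgeR adjusted p = 0.00285). Saa3, a serum amyloid A gene, was at 25.6, 26.8 and 35.2 CPM in QJSB and 1.99, 7.4 and 2.40 CPM in leucogen (log2 fold change 2.86, standard error 0.47, edgeR adjusted p = 0.00575). It was all but absent from normal marrow (0.023 CPM) and highest in model (44.1 CPM), and it has close paralogs between which reads could be split. Ddit4, Fos and Saa3 were called in each fit that left out a library and with the GC trend removed. The other 5 genes on this side varied more among mice and lost their calls when some libraries were left out. Evi2b, a leucocyte membrane protein gene within an intron of Nf1, was at 57.3, 239 and 26.7 CPM in QJSB and 12, 8.48 and 12.8 CPM in leucogen (log2 fold change 3.25, edgeR adjusted p = 0.0391, and 0.128 with the replicate block). Col1a1, the alpha chain of type I collagen, was at 424 CPM in QJSB 1 and 65.7 and 67.7 CPM in the others, against 21.4 to 24.2 CPM in leucogen (log2 fold change 3.02, edgeR adjusted p = 0.0441, and 0.0774 with the block). Magi1, a junctional scaffold gene, was at 28.7, 3.42 and 11.9 CPM against 1.99, 1.09 and 1.73 CPM (log2 fold change 3.18, edgeR adjusted p = 0.0234). Dusp1, a phosphatase of MAP kinases, was at 10.4, 72.3 and 28.5 CPM against 3.18, 7.61 and 5.09 CPM (log2 fold change 2.78, edgeR adjusted p = 0.0360), and Abca6, a lipid transporter gene, had a log2 fold change of 2.48 (edgeR adjusted p = 0.0273). Col1a1 and Dusp1 were not called with the GC trend removed (edgeR adjusted p = 0.0804 and 0.0681). Each of Evi2b, Col1a1, Magi1 and Dusp1 lost its call without leucogen 1, 2 or 3 (adjusted p from 0.0521 to 0.132 by edgeR), Dusp1 also without QJSB 3 (0.0537) and Evi2b also without QJSB 1 (0.106). Abca6 lost its call without QJSB 1 (0.0740), QJSB 3 (0.0723), leucogen 1 (0.0981) or leucogen 2 (0.0544).

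**Figure D2:**
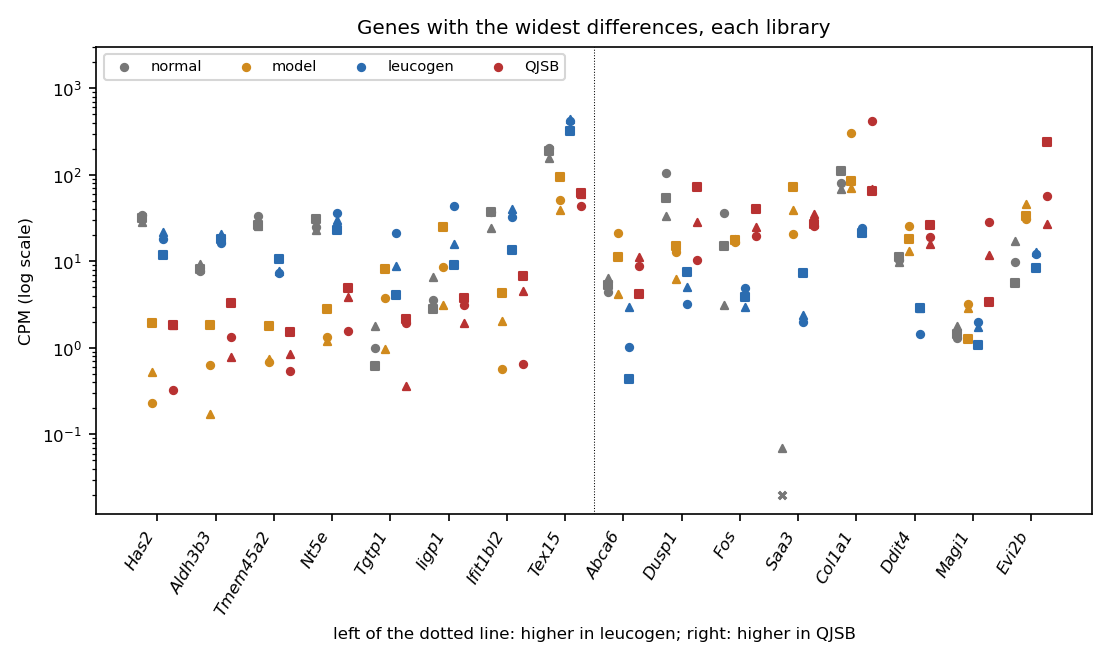
Level in CPM (log scale, vertical axis) of the 16 genes with the widest called differences (horizontal axis), in each of the 12 libraries, with colours for groups and circles, squares and triangles for replicates 1, 2 and 3. A cross marks a library below 0.02 CPM, drawn at that level. The 8 genes left of the dotted line lie higher in leucogen, as Has2 at 11.7 to 22 CPM against 0.322 to 1.85 CPM, and the 8 right of it higher in QJSB, as Ddit4 at 15.9 to 26.1 CPM against 1.43 to 2.90 CPM.

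Early and late neutrophil genes differed in opposite directions in the median. Of 8 primary granule genes of promyelocytes, 4 were higher in QJSB and 1 in leucogen, with a median log2 fold change of 0.75. Mpo, myeloperoxidase, was at 4570, 4360 and 4090 CPM in QJSB and 1350, 1840 and 1160 CPM in leucogen (log2 fold change 1.56, standard error 0.21, edgeR adjusted p = 0.00311). Elane, neutrophil elastase, was at 1490, 1500 and 1510 CPM against 601, 748 and 482 CPM (log2 fold change 1.28, edgeR adjusted p = 0.00343). Prtn3, proteinase 3, was at 682, 689 and 591 CPM against 270, 239 and 230 CPM (log2 fold change 1.39, edgeR adjusted p = 0.00285). For all 3 every QJSB library was above every leucogen library, and both groups were above the normal means (367, 187 and 46.5 CPM). They were called in each fit that left out a library and with the GC trend removed, where the list had 5 called higher in QJSB and 0 in leucogen. The fourth gene was the serine protease Prss57 (log2 fold change 1.02). Ctsg, cathepsin G, did not reach the fold cutoff, with a log2 fold change of 0.48 (edgeR adjusted p = 0.0448), or 0.25 with the GC trend removed (edgeR adjusted p = 0.260). The gene higher in leucogen was the membrane protein gene Igsf6 (-0.73). Serpinb1a also lay on the leucogen side without a call (log2 fold change -0.95, edgeR adjusted p = 0.0564). It was called with the replicate block (edgeR adjusted p = 0.0118), where the list had 4 higher in QJSB and 2 in leucogen. Ms4a3 was not called (0.10), but was with the GC trend removed (0.65, edgeR adjusted p = 0.0290).

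The promoters of Mpo, Prtn3 and Elane are shown because they are the called primary granule genes that hold the motif searched. The motif GAGGAAGT, a binding motif of PU.1, the master factor of myeloid cells, was searched on both strands from 250 bases before to 50 bases after each annotated start (RefSeq, GRCm38.p6). Among 6 primary granule genes with a promoter sequence, 3 held it (50%), Mpo, Elane and Prtn3, as did 5 of 18 late granule genes (27.8%) and 997 of 27025 genes overall (3.69%). Capitals mark the match, which is a description of letters and not a shown site. The Mpo window is chr11:87793534-87793833, and those of Prtn3, chr10:79879417-79879716, and Elane, chr10:79886062-79886361, are neighbours, all on the plus strand.
Mpo: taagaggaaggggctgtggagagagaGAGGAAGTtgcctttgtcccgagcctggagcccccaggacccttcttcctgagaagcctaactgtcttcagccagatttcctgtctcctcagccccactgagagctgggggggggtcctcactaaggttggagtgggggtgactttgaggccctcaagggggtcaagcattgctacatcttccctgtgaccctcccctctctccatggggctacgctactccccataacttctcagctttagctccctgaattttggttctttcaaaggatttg
Prtn3: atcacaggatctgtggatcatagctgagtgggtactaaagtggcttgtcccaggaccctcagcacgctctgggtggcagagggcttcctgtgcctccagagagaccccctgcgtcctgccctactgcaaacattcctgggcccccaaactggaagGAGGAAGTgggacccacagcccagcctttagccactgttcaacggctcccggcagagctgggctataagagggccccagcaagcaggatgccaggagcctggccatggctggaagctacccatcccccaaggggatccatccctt
Elane: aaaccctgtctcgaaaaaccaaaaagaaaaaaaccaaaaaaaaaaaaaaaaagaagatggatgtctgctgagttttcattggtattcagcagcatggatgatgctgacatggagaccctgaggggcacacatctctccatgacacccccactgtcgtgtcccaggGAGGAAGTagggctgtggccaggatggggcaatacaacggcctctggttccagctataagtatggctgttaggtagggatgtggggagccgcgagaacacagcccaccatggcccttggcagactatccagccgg
The C/EBP motif TTGCNNAA was in 1 of the 6 primary granule promoters (16.7%), in 8 of the 18 late granule promoters (44.4%) and in 12.2% of all.

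The late granule genes stood higher in leucogen in the median, but the QJSB mice were far apart. The mean log2 CPM of the 20 genes was 9.73, 9.98 and 9.92 in leucogen and 6.90, 9.54 and 9 in QJSB 1 to 3, against 8.89 ± 0.055 (SD, n = 3) in normal. The groups did not overlap, and QJSB 1 lay well below the other QJSB mice. The median log2 fold change of the 20 was -1.14, and 1 gene was called, S100a9, higher in leucogen. This share lay below the 11.7% of all genes tested. S100a9, a subunit of calprotectin, was at 1690, 6270 and 5880 CPM in QJSB and 11000, 13500 and 16800 CPM in leucogen (log2 fold change -1.60, standard error 0.47, edgeR adjusted p = 0.0373), and its call was lost without any leucogen library or QJSB 3. S100a8, its partner, was at 2360, 13000 and 9730 CPM against 23700, 25400 and 25900 CPM (edgeR adjusted p = 0.0592). Camp, the cathelicidin, was at 195, 779 and 505 CPM against 1200, 1180 and 1220 CPM (edgeR adjusted p = 0.0595), and Ltf, lactoferrin, at 648, 4300 and 2770 CPM against 4010, 5340 and 4170 CPM (edgeR adjusted p = 0.328). Without QJSB 1 the number of the 20 called higher in leucogen was 9, with a median of -0.72, and with the replicate block it was 3. With the GC trend removed it was again 1, but this was Camp (log2 fold change -1.65, edgeR adjusted p = 0.0465) and not S100a9 (edgeR adjusted p = 0.0751), and the median was -1.17. The list of mature neutrophil receptors had 21 gene entries from 20 names, since Itgam had an entry at -0.56 and another at 0.43, neither called. Among the 21, 1 was higher in QJSB, the selectin ligand gene Selplg (0.66), and 2 in leucogen, the formyl peptide receptor Fpr2 (-2.08) and the chemokine receptor Ccr1 (-1.15, 39.1% GC). Fpr2 was at 33.0, 105 and 63.9 CPM against 336, 177 and 325 CPM (edgeR adjusted p = 0.0154, and 0.0757 with the block). Csf3r, the receptor of G-CSF, was at 221, 333 and 328 CPM in QJSB and 319, 327 and 305 CPM in leucogen (edgeR adjusted p = 0.615). None of the 6 genes of the NADPH oxidase, the source of the neutrophil's oxidative burst, was called by edgeR, with 1 at an unadjusted p under 0.05 and 1 called by DESeq2. Cybb, its catalytic subunit, was at 1260, 3220 and 2660 CPM against 3070, 4140 and 3910 CPM (edgeR adjusted p = 0.161), and with the block its adjusted p was 0.0342.

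**Figure D3:**
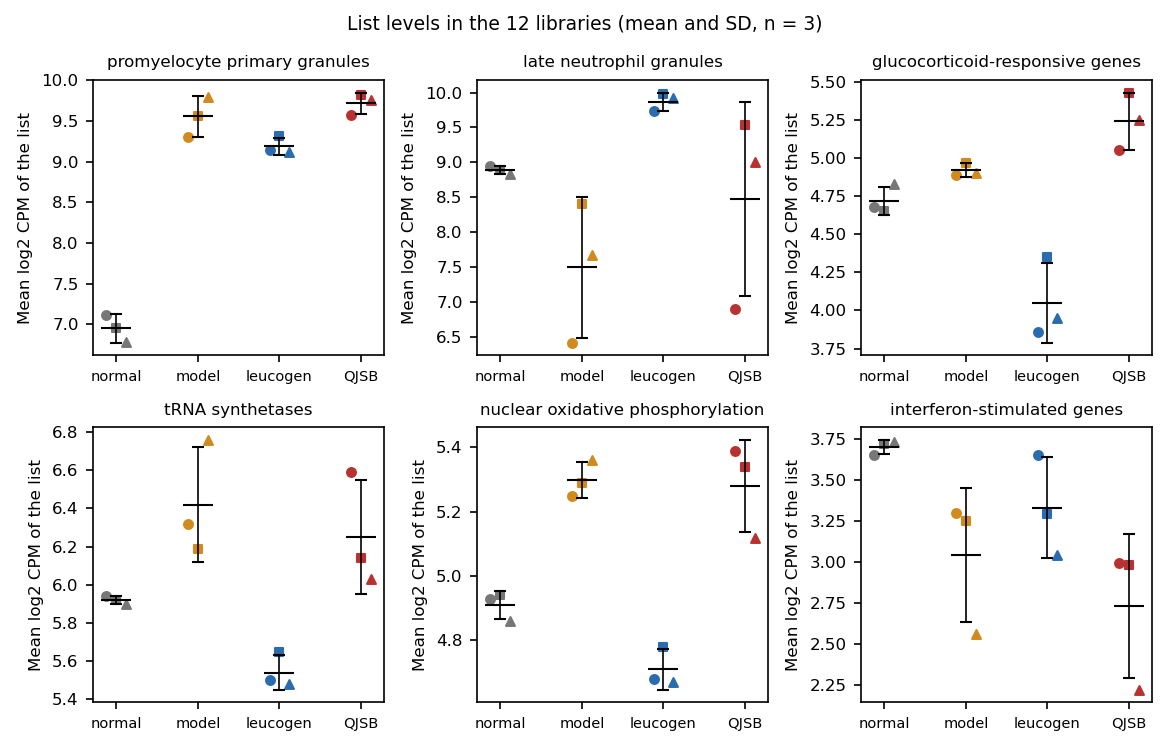
Mean log2 CPM (vertical axis) of 6 gene lists in each of the 12 libraries by group, with marker shapes for replicate numbers and bars for the mean and SD (n = 3). The QJSB libraries lie above the leucogen libraries for primary granules, glucocorticoid-responsive genes, tRNA synthetases and nuclear oxidative phosphorylation, and late granules run from 6.90 to 9.54 in QJSB against 9.73 to 9.98 in leucogen.

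Of 17 macrophage genes 5 were higher in QJSB and 0 in leucogen (median 0.48), and 4 with the GC trend removed. The list was mixed. Of the 17 genes 12 had positive log2 fold changes, while Timd4, Cd5l and Spic had values of -1.20, -0.90 and -0.77. They fell short of a call (edgeR adjusted p = 0.0639, 0.121 and 0.0687), and Cd5l was called with the block (edgeR adjusted p = 0.0380). Their groups did not overlap, as for 48.8% of all genes tested. Cd163, the scavenger receptor for haemoglobin, was at 14, 15.3 and 7.62 CPM in QJSB and 4.21, 2.68 and 2.40 CPM in leucogen (log2 fold change 1.96, standard error 0.34, edgeR adjusted p = 0.00524). Gpnmb, a lysosomal glycoprotein gene, was at 14.7, 38.6 and 49.2 CPM against 7.71, 11.5 and 12.9 CPM (edgeR adjusted p = 0.0283), a call lost without any leucogen library, QJSB 2 or QJSB 3. Of 14 stem and progenitor genes 2 were called, both higher in QJSB, a share close to the 12.9% of all genes tested, and 1 with the GC trend removed. Flt3, a receptor of early progenitors, was at 126, 113 and 115 CPM in QJSB and 28.8, 32.2 and 31.5 CPM in leucogen, so that the mice of each group were nearly alike. Its log2 fold change of 1.91 (standard error 0.13, edgeR adjusted p = 0.00184) stood beside 114 CPM in model and 30.1 CPM in normal. Sox4, a factor of lymphoid and myeloid progenitors, was at 58.0, 37.1 and 28.3 CPM against 16.0, 22.1 and 20.7 CPM (edgeR adjusted p = 0.0202). Of 16 monocyte genes 2 were higher in QJSB, Fn1 and Csf1r, and 1 in leucogen, Ccr2. Fn1, fibronectin, was at 2280, 2190 and 2340 CPM against 756, 613 and 888 CPM (log2 fold change 1.57, edgeR adjusted p = 0.00285). Csf1r, the receptor of M-CSF, had a log2 fold change of 0.90 (edgeR adjusted p = 0.0108, and 0.0874 with the GC trend removed), and Ccr2, which brings monocytes out of the marrow, one of -1.11 (edgeR adjusted p = 0.0492) with overlapping libraries. The 10 tested genes of antigen presentation by MHC class II had 2 called higher in QJSB (median 0.83), among them Ctss, cathepsin S, at 277, 192 and 209 CPM against 138, 119 and 139 CPM (edgeR adjusted p = 0.0125). Its call was lost without QJSB 1 or leucogen 3.

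Other marrow cell types gave few calls, beside 12.9% higher in QJSB and 11.7% higher in leucogen over all genes tested. None of 8 pre-B genes was called by edgeR, with 1 at an unadjusted p under 0.05, 1 called by DESeq2 and a median of 0.64. Dntt, the terminal transferase of lymphoid precursors, was at 27.9, 4.98 and 4.81 CPM in QJSB and 3.89, 3.48 and 6.24 CPM in leucogen (edgeR adjusted p = 0.187). Igll1, of the surrogate light chain, was at no more than 1.29 CPM in any of the 6 libraries, and Vpreb1 had too few counts to be tested. Without QJSB 1 the pre-B list had 3 called higher in leucogen. Of 17 erythroid genes 15 had positive log2 fold changes, with a median of 0.80, or 0.05 without QJSB 1. The 1 gene called was Tfrc, the transferrin receptor, which was higher in leucogen (log2 fold change -1.02, edgeR adjusted p = 0.0132, 39.8% GC, and 0.243 with the GC trend removed). Hba-a1, alpha globin, was at 84.2, 75.8 and 34.7 CPM in QJSB and 20.9, 72.4 and 20.8 CPM in leucogen (edgeR adjusted p = 0.372). Alas2, the first enzyme of haem synthesis in red cells, was at 17.1 to 35.7 and 11.0 to 44.2 CPM (edgeR adjusted p = 0.700). Without leucogen 2 their edgeR adjusted p was 0.0277 and 0.0307. Of 14 megakaryocyte genes 1 was called, Clec1b, a platelet receptor gene with 37.2% GC, higher in leucogen at -0.74 (edgeR adjusted p = 0.0274) and at 0.04 with the GC trend removed. That list had 9 called higher in QJSB without leucogen 1 and 3 with the block. Of 10 eosinophil genes 0 were called by edgeR, with 0 at an unadjusted p under 0.05 and 0 called by DESeq2. Prg2, the major basic protein, was at 136 CPM in QJSB 1 and 39.5 and 23.6 CPM in the others against 46.9 to 60 CPM in leucogen. Without QJSB 1 its log2 fold change was -0.77 (edgeR adjusted p = 0.0245). Of 9 genes of T and NK cells 1 was higher in QJSB and 2 in leucogen. The granule protein gene Nkg7 was at 143, 115 and 95.9 CPM against 53.4, 61.2 and 38.3 CPM (edgeR adjusted p = 0.00548). Ncr1, an activating receptor of NK cells, was higher in leucogen (log2 fold change -2.92), as was Gzma, granzyme A (log2 fold change -2.85, edgeR adjusted p = 0.0213, at 11.3, 1.45 and 8.26 CPM there), whose adjusted p was 0.0655 with the block. Nkg7 averaged 103 CPM in model and 20.1 CPM in normal, and Gzma 1.99 and 14.2 CPM. The 4 groups thus stood in opposite order for these genes, and no direction is given for T and NK cells. Of 8 mature B cell genes Bank1, a signalling adaptor, was higher in leucogen at 17.1, 18.5 and 18.1 CPM against 4.94, 7.01 and 4.02 CPM (log2 fold change -1.77, edgeR adjusted p = 0.00304). Of 12 endothelial genes 2 were higher in QJSB, Eng, endoglin (1.10), and Stab2, a scavenger receptor of sinusoids (0.75), and 0 were with the GC trend removed. Of 19 stroma and bone genes 1 was called, Col1a1, of 8 basophil and mast cell genes 1, Fcer1a, a chain of the IgE receptor (-1.61, not called with the block, edgeR adjusted p = 0.0577), and of 7 osteoclast genes 0 were called by edgeR, with 1 at an unadjusted p under 0.05 and 1 called by DESeq2. Cpa3, a protease of mast cells, was at 22.5, 7.41 and 5.30 CPM in QJSB against 12.4, 22.3 and 18.1 CPM (edgeR adjusted p = 0.425, and 0.0037 without QJSB 1). Without QJSB 1 the basophil and mast cell list had 3 called higher in leucogen. The integrin gene Itgb3 was at 274 to 313 and 220 to 305 CPM (edgeR adjusted p = 0.467).

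Genes listed as responsive to glucocorticoids gave the highest median of the lists written by hand. Of 14 tested, 10 were higher in QJSB, 1 was higher in leucogen and 3 were not called, with a median log2 fold change of 1.40. The members averaged 5.05, 5.43 and 5.25 in QJSB and 3.86, 4.35 and 3.95 in leucogen on the log2 CPM scale, with 4.92 ± 0.04 in model and 4.72 ± 0.09 in normal (SD, n = 3). The leucogen libraries lay below all 9 others. Per1, a clock gene, was at 70.5, 93.8 and 101 CPM in QJSB and 21.3, 34.3 and 20 CPM in leucogen (log2 fold change 1.79, standard error 0.24, edgeR adjusted p = 0.00314). Zbtb16, a transcription factor, was at 25.8, 22.6 and 27.4 CPM against 10.0, 8.85 and 6.91 CPM (log2 fold change 1.53, edgeR adjusted p = 0.00288). Klf9 was at 51.5, 50.1 and 52.9 CPM against 20, 19.7 and 23.5 CPM (log2 fold change 1.27, edgeR adjusted p = 0.00285). Fkbp5, a chaperone that restrains the glucocorticoid receptor, was at 230, 280 and 271 CPM against 93.3, 136 and 113 CPM (log2 fold change 1.17, edgeR adjusted p = 0.00343). Tsc22d3, which encodes GILZ, was at 135, 192 and 231 CPM against 96.1, 115 and 80 CPM (log2 fold change 0.92, edgeR adjusted p = 0.0168, lost without leucogen 1, leucogen 3 or QJSB 3). The other calls on this side were Ddit4, Dusp1, the kinase gene Pdk4 (2.07) and the metallothionein genes Mt2 (1.98) and Mt1 (1.57). Nr3c1, the glucocorticoid receptor itself, was higher in leucogen, at 266, 352 and 250 CPM against 104, 125 and 147 CPM (log2 fold change -1.22, standard error 0.19, edgeR adjusted p = 0.00405). Cebpd, Sgk1 and Tgm2 were not called (-0.17, 0.30 and -0.07). After removal of the GC trend 9 were higher in QJSB and 1 in leucogen, with a median of 1.24, and without leucogen 3 the counts were 5 and 1. The hour of sampling, which Per1 and this list also follow, is not given in the sources used here.

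Immediate early genes shared Dusp1 with the glucocorticoid-responsive genes. Of 16, 5 were called higher in QJSB, Fos, Dusp1, Jun (1.71), Jund (1.52) and Junb (1.21), and 0 in leucogen, with a median of 0.50. With the GC trend removed 2 were higher in QJSB and 1 in leucogen, and the median was 0.11. Without leucogen 3 there was 1 call.

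Genes of the integrated stress response, by which ATF4 raises amino acid supply, and the tRNA synthetases were called nearly all on the QJSB side. Of 16 stress response genes 8 were higher in QJSB and 0 in leucogen (median 0.75), and of 20 synthetases 11 were higher in QJSB and 1 in leucogen (median 0.80). Shmt2, the mitochondrial serine hydroxymethyltransferase, was at 143, 84.4 and 69.2 CPM in QJSB and 31.3, 34.8 and 22.3 CPM in leucogen (log2 fold change 1.72, standard error 0.29, edgeR adjusted p = 0.00549). Slc7a5, which carries large neutral amino acids, was at 98.7, 51.1 and 46.1 CPM against 18.0, 26 and 16.4 CPM (log2 fold change 1.67, standard error 0.32, edgeR adjusted p = 0.00863). QJSB 1 was the highest library for both. Asns, asparagine synthetase, was at 55.2, 74.9 and 65.6 CPM against 26, 43.6 and 27.6 CPM (log2 fold change 0.99, edgeR adjusted p = 0.0121), and Trib3, a pseudokinase, at 3.38, 3.76 and 2.38 CPM against 0.795, 1.45 and 0.672 CPM (log2 fold change 1.66, edgeR adjusted p = 0.0163). Both calls were lost without leucogen 1 or leucogen 3. Kars, lysyl-tRNA synthetase, was at 148, 99.3 and 86.0 CPM against 33.1, 39.1 and 30.6 CPM (log2 fold change 1.67, standard error 0.21, edgeR adjusted p = 0.00288), and Vars, valyl-tRNA synthetase, had a log2 fold change of 1.36 (edgeR adjusted p = 0.00694). The exception was Dars (-0.63), which was not called with the GC trend removed. In that fit 5 stress response genes and 9 synthetases were higher in QJSB and 0 of either in leucogen, and without leucogen 3 the numbers higher in QJSB were 4 and 7. The mean log2 CPM of the synthetases was 6.25 ± 0.30 in QJSB, 5.54 ± 0.09 in leucogen, 6.42 ± 0.30 in model and 5.92 ± 0.02 in normal (SD, n = 3).

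The letters TGATGNAA, the core of the element that ATF4 binds, were looked for in the same windows after the values were seen. They were in 7 of 15 stress response promoters (46.7%), in 5 of 12 synthetase promoters (41.7%) and in 4.51% of all 27025. The windows of Asns (chr6:7693160-7693459) and Trib3 (chr2:152344011-152344310), both on the minus strand and written 5′ to 3′ with the match in capitals, are shown as called genes that hold it. In Trib3 the match reads on the opposite strand.
Asns: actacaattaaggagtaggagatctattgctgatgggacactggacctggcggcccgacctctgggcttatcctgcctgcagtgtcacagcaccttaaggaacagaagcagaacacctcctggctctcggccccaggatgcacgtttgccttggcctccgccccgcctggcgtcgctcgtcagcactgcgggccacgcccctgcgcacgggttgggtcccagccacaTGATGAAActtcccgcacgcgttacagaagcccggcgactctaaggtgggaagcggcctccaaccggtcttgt
Trib3: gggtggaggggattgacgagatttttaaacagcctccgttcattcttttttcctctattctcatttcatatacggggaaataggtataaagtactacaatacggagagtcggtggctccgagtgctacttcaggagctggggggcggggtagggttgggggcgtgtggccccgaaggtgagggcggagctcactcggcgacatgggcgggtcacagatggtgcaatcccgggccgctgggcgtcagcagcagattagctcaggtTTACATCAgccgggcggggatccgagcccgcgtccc

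Nuclear genes of oxidative phosphorylation, the machine by which mitochondria make ATP, had 31 of 57 called higher in QJSB and 2 higher in leucogen, with a median of 0.68. The mean log2 CPM was 5.39, 5.34 and 5.12 in QJSB and 4.68, 4.78 and 4.67 in leucogen, with 5.30 ± 0.06 in model and 4.91 ± 0.04 in normal (SD, n = 3). Subunits of every complex were among the calls, such as Ndufa10 of complex I (1.34), Sdhc of complex II (1.23), Uqcrq of complex III (1.36) and Atp5b of the ATP synthase (1.42). Of complex IV, Cox6a1 was at 25.2, 28.9 and 19.2 CPM against 8.10, 8.63 and 7.49 CPM (log2 fold change 1.57, standard error 0.20, edgeR adjusted p = 0.00287), and Cox8a at 86.1, 101 and 73.6 CPM against 32.7, 32.9 and 23.7 CPM (log2 fold change 1.52, edgeR adjusted p = 0.00285). The exceptions were Atp5l (-1.01) and Cox6c (-0.70). After removal of the GC trend 26 were higher in QJSB and 3 in leucogen (median 0.54), and without leucogen 3 the numbers were 27 and 1. The 13 genes encoded by mitochondrial DNA, whose GC content is low (median 37.1%), had a median of -0.11 with mt-Nd3 higher in QJSB (0.83) and mt-Nd6 in leucogen (-1.25). With the GC trend removed their median was 0.59, with 5 higher in QJSB and 0 in leucogen, so no direction is given for them.

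Of 78 genes of cytosolic ribosomal proteins 26 were higher in QJSB and 1 in leucogen (median 0.24), and with the GC trend removed 21 and 7 (median 0.07). The list did not move as one. Rpl7a was at 156, 174 and 146 CPM against 49.6, 68.3 and 48.8 CPM (log2 fold change 1.5, edgeR adjusted p = 0.00285) and Rps28 at 39.0, 45.8 and 33.0 CPM against 15.2, 16.5 and 10.8 CPM (log2 fold change 1.45, edgeR adjusted p = 0.00328). Rpl36a was higher in leucogen at 24.5, 17.9 and 26.3 CPM against 10.3, 8.86 and 11.5 CPM (log2 fold change -1.18, edgeR adjusted p = 0.00582). Many processed copies of these genes lie in the genome, and how the counting shared reads among them is not given in the sources used here.

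Of 19 genes of glycolysis and hypoxia 9 were higher in QJSB and 0 in leucogen (median 0.60), and 4 with the GC trend removed. Aldoa, aldolase A, was at 377, 563 and 469 CPM against 164, 246 and 170 CPM (log2 fold change 1.26, edgeR adjusted p = 0.00495), and Egln3, an oxygen-sensing prolyl hydroxylase, had a log2 fold change of 0.99 (edgeR adjusted p = 0.00995, and 0.0551 without leucogen 3). Without leucogen 3 the list had 2 calls. Of 19 genes of cholesterol synthesis 6 were higher in QJSB, among them Dhcr7 (0.91), which acts late in the pathway, and 1 was with the GC trend removed. Without leucogen 3 there were 0.

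Genes of DNA replication and mitosis were called mainly on the QJSB side. Of 29 replication genes 9 were higher in QJSB and 2 in leucogen (median 0.45), and of 24 mitosis genes 8 and 0 (median 0.15). Mcm7, of the replicative helicase, was at 270, 252 and 229 CPM in QJSB and 93.2, 126 and 95.9 CPM in leucogen (log2 fold change 1.23, edgeR adjusted p = 0.00287), and Mcm2, Mcm3, Mcm4 and Mcm5 were higher too, by 0.70 to 1.19. Cdt1, which loads the helicase, was at 71.6, 63.4 and 56.0 CPM against 25.1, 29.2 and 21.9 CPM (log2 fold change 1.30, edgeR adjusted p = 0.00285). Plk1, a mitotic kinase, was at 100, 115 and 102 CPM against 37.7, 47.8 and 32.3 CPM (log2 fold change 1.41, edgeR adjusted p = 0.00285), and Ube2c, which serves the anaphase-promoting complex, had a log2 fold change of 1.32 (edgeR adjusted p = 0.00350). The replication genes higher in leucogen were Ccne2, cyclin E2 (-1.34, 36.3% GC), and Pola1 (-0.71). With the GC trend removed the counts were 8 and 0 for replication and 6 and 0 for mitosis. The histone genes that are switched on in S phase were singled out after their values were seen. Of 67 tested, 37 were higher in QJSB and 0 in leucogen, with a median of 1.26, and 16 of 65 were with the GC trend removed (median 0.73, median GC 58.8%). Hist2h3c2 was at 344, 518 and 413 CPM against 98.6, 112 and 89.9 CPM (log2 fold change 2.07, edgeR adjusted p = 0.00272). These genes are near-identical copies, so reads may be shared among them, and their RNA mostly lacks a poly(A) tail.

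**Figure D4:**
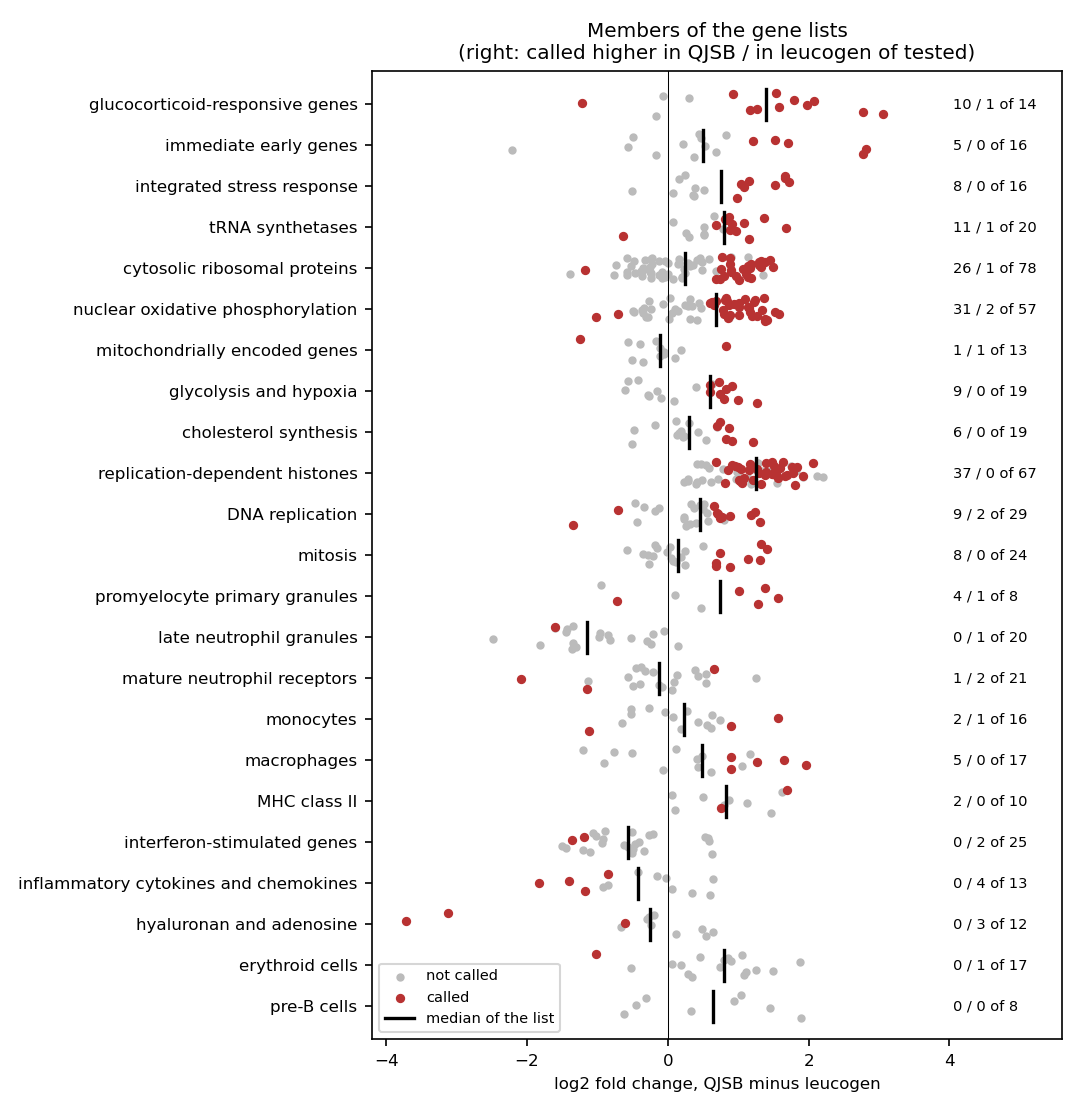
Log2 fold change of each tested member (QJSB minus leucogen, horizontal axis) for 23 gene lists, with called genes in red, other genes in grey and a black bar at the median. The counts on the right are called higher in QJSB, then higher in leucogen, of those tested, as 31 and 2 of 57 for nuclear oxidative phosphorylation and 0 and 1 of 20 for late granules.

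Of 25 interferon-stimulated genes 2 were higher in leucogen, a share below the 11.7% of all genes tested, and 0 in QJSB (median -0.57). The counts were 4 and 0 with the GC trend removed, 8 and 0 with the replicate block, and 7 and 0 without QJSB 1. Oas2, an antiviral oligoadenylate synthetase, was at 9.08, 15.8 and 9.87 CPM in QJSB and 38.8, 26.5 and 22.9 CPM in leucogen (log2 fold change -1.37, standard error 0.28, edgeR adjusted p = 0.00898), against 12.1 CPM in model and 9.06 CPM in normal. Oasl2 was at 9.94, 20 and 8.77 CPM against 37.7, 23.8 and 25.3 CPM (log2 fold change -1.19, edgeR adjusted p = 0.0309). Its call was lost without QJSB 1, QJSB 3, leucogen 1 or leucogen 3. Of 13 inflammatory cytokine and chemokine genes 4 were higher in leucogen and 0 in QJSB (median -0.42). These were Il1rn, the antagonist of IL-1, at 3.71, 4.28 and 3.53 CPM against 9.93, 8.12 and 12.2 CPM (log2 fold change -1.41, edgeR adjusted p = 0.00510), Il1b (-1.83), Cxcl10 (-1.18, not called with the block, adjusted p = 0.0517) and Tnf (-0.85). Il1b itself was low, at 0.376, 0.811 and 0.914 CPM against 3.10, 2.54 and 1.73 CPM, where normal marrow had 32.4 CPM. After removal of the GC trend 4 were higher in leucogen and 1 in QJSB, and without leucogen 3 the count in leucogen was 2. Of 14 acute phase and complement genes 1 was called on each side, Saa3 in QJSB and the pentraxin gene Ptx3 in leucogen (-2.23). Of 12 genes of hyaluronan and adenosine 3 were higher in leucogen, Has2, Nt5e and Entpd1, which hydrolyses extracellular ATP (-0.61).

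None of 5 lipid genes that the study followed up was called between the drugs. Ggt5, which processes leukotriene C4, was at 5.69, 23.9 and 19.5 CPM in QJSB and 17.9, 15.7 and 16.1 CPM in leucogen (edgeR adjusted p = 0.957). Cyp4f18, which inactivates leukotriene B4, was at 5.26, 36.2 and 23.6 CPM against 28.8, 28.8 and 24.5 CPM (edgeR adjusted p = 0.688), and Alox5, 5-lipoxygenase, at 41.7, 169 and 108 CPM against 134, 170 and 139 CPM (edgeR adjusted p = 0.440). QJSB 1 was the lowest library for all 3. Pcyt1a, the rate-limiting enzyme of phosphatidylcholine synthesis, was at 119, 143 and 114 CPM against 89.5, 110 and 43.7 CPM (log2 fold change 0.60, standard error 0.30, edgeR adjusted p = 0.165), and the phosphatase gene Phospho1 at 1.66, 5.96 and 5.12 CPM against 5.40, 4.79 and 7.58 CPM (edgeR adjusted p = 0.430). The groups did not overlap for Pcyt1a, as for 48.8% of all genes tested. None of the 5 was called in any alternative, but their standard errors of 0.30 to 0.60 leave differences of the size of the fold cutoff undetectable here. Around them, 1 of 16 arachidonic acid genes was higher in QJSB, Alox5ap, the activator of 5-lipoxygenase (1.06, overlapping libraries), and 2 in leucogen, Hpgds (-0.95) and Pla2g4a (-0.76), and 0 were called with the GC trend removed. Of 12 phosphatidylcholine genes 3 were higher in QJSB and 1 in leucogen, and 1 on each side with the GC trend removed. Pla2g7, which degrades platelet-activating factor, was at 95.1, 88.7 and 98.9 CPM against 37.4, 38.4 and 49.1 CPM (log2 fold change 1.16, standard error 0.15, edgeR adjusted p = 0.00304), and Lpcat3 had a log2 fold change of 0.72.

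The remaining lists were mixed, beside 12.9% higher in QJSB and 11.7% higher in leucogen over all genes tested. Of 17 genes listed under cyclophosphamide and glutathione detoxification, 5 were higher in QJSB and 2 in leucogen, the latter Aldh3b2 and Aldh3b3. Whether these 2 act on cyclophosphamide was not tested. The counts were 1 and 2 with the GC trend removed, without leucogen 1 and without leucogen 3. Gstm1, a glutathione transferase, was at 309, 435 and 392 CPM in QJSB and 115, 188 and 98.8 CPM in leucogen, with 24.9 CPM in normal (log2 fold change 1.48, edgeR adjusted p = 0.00528). Of 16 myeloid transcription factors 3 were higher in QJSB, Cebpb (1.48), Cebpa (0.82) and Gfi1 (0.73), all GC-rich and none called with the GC trend removed, and Runx1 was higher in leucogen (-0.65). Of 12 receptors of myeloid growth factors 4 were higher in QJSB and 0 in leucogen, among them Il3ra (0.95), and 1 on each side with the GC trend removed. Of 21 p53 targets 4 were higher in QJSB, among them Sesn2 (1.04) and Cdkn1a (0.99), and 2 in leucogen, with 2 and 0 once the GC trend was removed and 0 and 2 without leucogen 1 or leucogen 3. Of 14 genes of the Bcl2 family 3 were higher in QJSB, among them Bak1, an effector of apoptosis, at 119, 105 and 88.8 CPM against 38.7, 51.6 and 41.9 CPM (log2 fold change 1.22, edgeR adjusted p = 0.00304), and Bmf (0.97). Of 23 TGF-beta genes 3 were called on each side, and 1 on each side with the GC trend removed. Acvrl1, a receptor of BMP9, was higher in leucogen at 62.8, 41.8 and 63.6 CPM against 6.61, 17.5 and 13.4 CPM (log2 fold change -2.19, standard error 0.35, edgeR adjusted p = 0.00549), as was Bmpr1a (-1.44, lost without any leucogen library, QJSB 2 or QJSB 3). Of 21 Fanconi and crosslink repair genes 2 were higher in leucogen, Fancb (-0.62) and Rad51c (-0.61), and 0 were called with the GC trend removed. Of 4 tested genes listed as noncoding RNAs of the nucleus, Gm26917 was higher in QJSB (1.37) and Kcnq1ot1 in leucogen (-0.83). Gm26917 is a gene model beside Gm42418 on chromosome 17, and whether its RNA is nuclear was not tested. It was not called with the GC trend removed (edgeR adjusted p = 0.0811). Malat1 was higher in leucogen at 17300, 14800 and 16500 CPM against 6970, 7860 and 9120 CPM (log2 fold change -1.04, edgeR adjusted p = 0.00941, and 0.0520 with the GC trend removed). Of 10 hosts of small nucleolar RNAs 1 was called, Gas5 (-0.79).

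**Figure D5:**
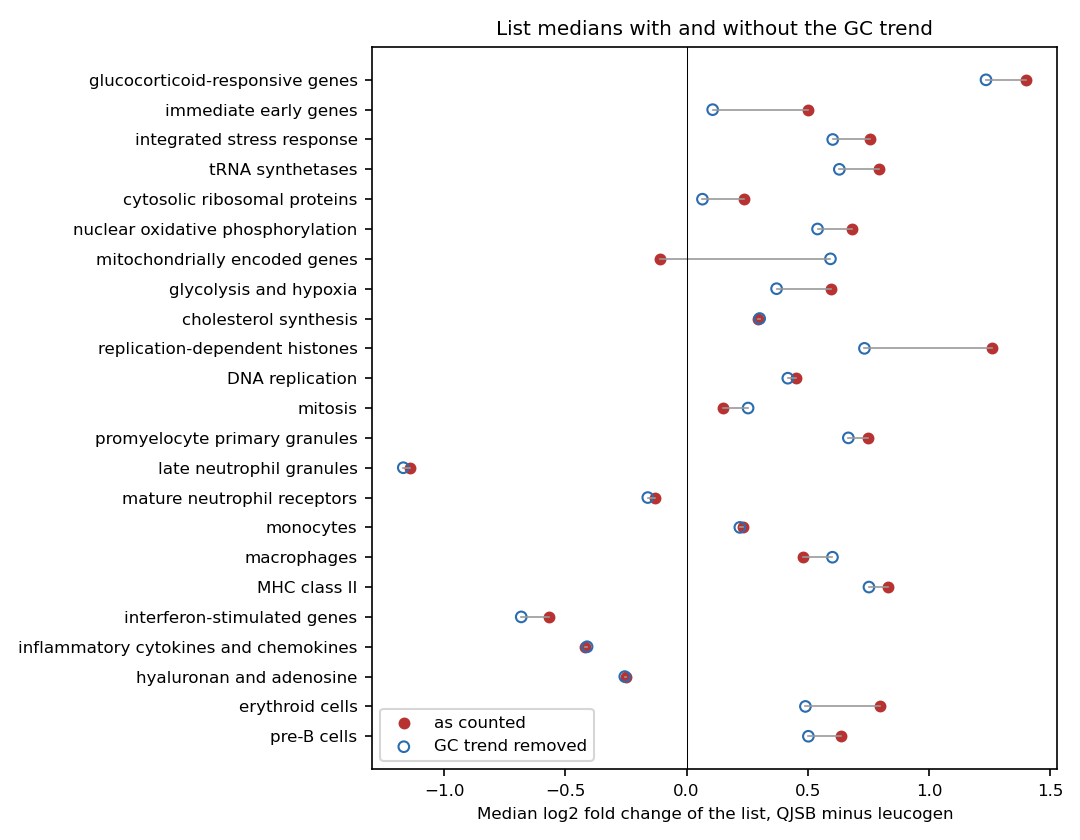
Median log2 fold change of 23 gene lists (QJSB minus leucogen, horizontal axis) as counted (filled) and with the trend of each library on GC content removed (open). The median of mitochondrially encoded genes goes from -0.11 to 0.59, that of histones from 1.26 to 0.73 and that of glucocorticoid-responsive genes from 1.40 to 1.24.

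Set against the reference groups, the QJSB mean was the nearer of the 2 to the model mean for 10044 of the 14266 genes tested (70.4%) and for 3136 of the 3511 called (89.3%). It was the nearer to the normal mean for 46.9% of all genes tested and 42.5% of those called, the leucogen mean for 57.5% of those called. Among the 1836 genes higher in QJSB, leucogen was nearer to normal for 1084 (59.0%), and among the 1675 higher in leucogen for 935 (55.8%). With the GC trend of each of the 12 libraries removed, QJSB was the nearer to model for 71.4% of 14200 genes and 84.4% of 3496 of those called, and the nearer to normal for 50.1% and 48.0%. The model libraries also resembled QJSB in the share of counts at Gm26917 (4.14% ± 1.03) and Gm42418 (0.395% ± 0.099), where normal had 1.86% ± 0.28 and 0.201% ± 0.025 (SD, n = 3). The part of library composition in these counts was not tested further. Nt5e and Flt3 are examples with leucogen near normal. For Mpo, Elane and Gstm1 both drug groups were above normal, for Tex15 leucogen was above and QJSB below normal, and for Oas2 the QJSB and model levels were near normal and leucogen above it. These counts are a description of group means and carry no test.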

How the data were processed

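Strand-specific libraries of total RNA freed of ribosomal RNA were made by the authors, who filtered the reads and aligned them to mm10 (GRCm38) by HISAT2. The counting program, its annotation and its use of strand are not given in the sources used here. The deposited table gives whole-number counts for each gene and library without normalization, and FPKM that the authors computed from mapped fragments and transcript length. Of its columns of values, 0 were left unused. Doses, schedule and sex were taken from the study's methods, and all bone marrow cells of the femur were used per the labels. Columns were read as groups as stated above.

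The quasi-likelihood test of edgeR 4.0.16 (R 4.3.3), with filterByExpr, TMM scaling and robust dispersion, was run on the counts of the 6 libraries, with Benjamini-Hochberg adjustment over all genes tested. Levels are CPM with TMM factors over all 12 libraries, and log2 CPM used a prior count of 2. Depth sets the counting error, and replicates differed by more than that. GC content came from the longest transcript in GENCODE M21, which held 14207 of the genes tested. Its trend was fitted for each library by lowess (span 0.3) and used as an offset. Promoters were matched by symbol.

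The comparison and the 44 lists of 806 genes were chosen with earlier results of these data known. Genes named are the 8 widest called differences in each direction with no overlap and a mean normalized count of at least 50, unnamed models and antigen receptor segments passed over. To these come up to 2 called members of each list by the same minimum, or its most abundant member, 5 genes of the study and 6 marker genes. Other members were named after their values were seen.

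Same-numbered QJSB and leucogen libraries deviated together over the 14266 genes tested, with correlations of 0.174, 0.157 and 0.110. For this reason they were treated as paired in the fits with the replicate block, a choice made with the calls of the blocked fit known. No label gives the numbers a meaning, so this pairing has no other source, and over the 15310 genes that pass the filter in all 12 libraries the third was 0.0782. The fit without the block is the main one, so calls and adjusted p-values given without mention of the block do not use this pairing. Alternatives were DESeq2 1.42.0, DESeq2 size factors, total counts, no filter, a minimum of 10 counts per library, a joint fit of the 12 libraries, the replicate block, limma-trend (3.58.1) on log2(FPKM + 0.1), each library left out and, added after seeing the data, GC and length trends removed, protein-coding genes only and Gm26917 and Gm42418 removed.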

Additional observations from a re-analysis of the deposited data

How the results depend on the processing

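Of the 3511 genes called between QJSB and leucogen, counts stayed within 1.5 times under DESeq2, another scaling, no filter, a stricter filter, all 12 libraries in one fit, the replicate block, FPKM, length removed, protein-coding genes only and Gm26917 and Gm42418 removed. Leaving out 1 library gave 1544 (without leucogen 3) to 3585 (without QJSB 1) calls, with 2157 without leucogen 1. The added alternatives gave 1783 with the GC trend removed, 1740 with GC and length trends removed, 1908 with the GC trend removed and the block, and 2008 with QJSB 1 left out and the GC trend removed, where 2794 genes passed the unadjusted cutoff. The share of calls higher in QJSB, 52.3%, was 50.1% with DESeq2 size factors, 60.6% with total counts, 54.1% without a filter, 54.3% with all 12 libraries and 58.4% on FPKM, and 49.5% to 54.4% with 1 library left out. Total counts moved the median of all genes to 0.119. For Alas2, Csf3r, Cybb, Cyp4f18, Ggt5 and Itgb3, none called as counted, the fold change took the other sign, uncalled, in at least 1 alternative, and Alas2 was called without leucogen 2 (log2 fold change 1.34, edgeR adjusted p = 0.0307). The log2 fold change of Clec1b was 0.0401, 0.01515, 0.0508 and 0.1466 in the 4 fits without the GC trend, and that of Prg2 was -0.77 without QJSB 1, the lowest with 1 library left out, up to 0.70 without QJSB 3, and -1.04 without QJSB 1 and the GC trend. The causes were not tested. Of 77 called genes named by the rule, 38 kept the call whichever library was left out, 36 lost the call without leucogen 3, 31 without leucogen 1 and 9 without QJSB 1, and 45 were called with the GC trend removed. Calls lost without at least 1 library, beside those given above, were those of Alox5ap, Bmf, Ccr1, Ccr2, Cdkn1a, Cebpb, Clec1b, Csf1r, Dhcr7, Eng, Fancb, Fpr2, Gas5, Gzma, Hpgds, Il1b, Il3ra, Lpcat3, mt-Nd3, Rad51c, Sesn2, Sox4, Stab2, Tfrc and Tnf. The replicate block gave 3682 calls. It changed the calls of Col1a1, Evi2b, Fcer1a, Fpr2, Gzma, Ifit1bl2, Cxcl10, Cybb, Cd5l and Serpinb1a as given above and of no other gene named.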
